A study of Mus musculus with 10 samples.

Results

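The genes described here are 8 members of the sterol pathway, Hmgcs1, Idi1, Fdps, Fdft1, Sqle, Lss, Cyp51 and Insig1, listed by name, out of 24062 genes in each count table. Of these, 7 encode enzymes of cholesterol synthesis and the other, Insig1, a regulator; none is an uptake gene, and uptake genes were examined as a separate list. RNA was sequenced in 10 libraries of mouse cells, whose cultures all began with Lin-SCA1+KIT+ (LSK) bone marrow cells of C57BL/6J mice, which were grown in serum with stem cell factor, FLT-3 ligand, IL-6 and IL-11 (4GF). Cells of the 3 double-negative (DN) stages came from cultures on immobilized Delta1ext-IgG, a Notch ligand fused to an IgG tail, at high density. DN1 (KIT++CD44+CD25-) cells were sorted from 4GF cultures without IL-7, whereas DN2a cells (KIT++CD44+ with CD25) and DN2b cells (less KIT and CD44, with CD25) came from 4GF cultures that also received IL-7, so DN stage and IL-7 cannot be told apart in a comparison of DN2a or DN2b with DN1, nor Delta1 and IL-7 in one with no Notch, for which the sources used here describe no IL-7. The no Notch control was grown on human IgG in place of the ligand and labelled WT and day 14 (the labels of the DN libraries give no genotype), and the sources used here describe no sort by stage for it. There were 4 control libraries (IgG D1, D2, R1 and R2, letters that the labels do not explain) and 2 libraries of each DN stage, replicate 1 with a label date in the earlier of a pair of years and replicate 2 in the later. DN2a and DN2b libraries of 1 replicate number carry the same date and, per the study's methods, DN cells were sorted from each LSK replicate, so these libraries of different stages are not from independent isolates. The DN1 library of each replicate number carries an earlier date than its DN2a and DN2b libraries. Label date therefore also cannot be told apart from stage in a comparison of DN2a or DN2b with DN1.

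Cholesterol is built from acetyl-CoA by a chain of enzymes that passes through mevalonate, isoprenoid pyrophosphates, squalene and lanosterol. Its genes are switched on together by the SREBP transcription factors, which leave the endoplasmic reticulum with their escort SCAP when membrane sterol is low and are held back there by INSIG proteins when it is high. Proliferating lymphoid cells need the pathway for new membrane, whereas macrophages are known for taking up, esterifying and exporting cholesterol.

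Promoter windows of 3 genes are shown because they hold letters of SREBP's sterol regulatory element (Hmgcs1) or of motifs of its partner factors (all 3), in an enzyme gene near the start of the pathway, in the gene with the largest difference between the groups and in the regulator. Each is the 250 bases before a transcription start in the RefSeq annotation of GRCm38.p6, 5′ to 3′ on the strand of the gene. Capitals mark the sterol regulatory element TCACNCCAC, the NF-Y motif CCAAT and the Sp1 motif GGGCGG, each searched on both strands, so that some stand as the reverse complement.
Hmgcs1, chr13:119690101-119690350, plus strand: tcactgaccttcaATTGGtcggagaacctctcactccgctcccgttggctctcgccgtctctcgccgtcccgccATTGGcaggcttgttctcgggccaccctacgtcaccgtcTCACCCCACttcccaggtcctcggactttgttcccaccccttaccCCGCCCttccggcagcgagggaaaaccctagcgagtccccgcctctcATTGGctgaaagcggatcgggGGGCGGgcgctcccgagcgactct
Idi1, chr13:8885356-8885605, plus strand: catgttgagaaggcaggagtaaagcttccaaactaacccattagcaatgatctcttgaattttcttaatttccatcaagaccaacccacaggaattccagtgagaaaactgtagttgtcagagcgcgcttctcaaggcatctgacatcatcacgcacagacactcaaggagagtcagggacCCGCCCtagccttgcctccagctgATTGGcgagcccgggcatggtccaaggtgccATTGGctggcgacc
Insig1, chr5:28071162-28071411, plus strand: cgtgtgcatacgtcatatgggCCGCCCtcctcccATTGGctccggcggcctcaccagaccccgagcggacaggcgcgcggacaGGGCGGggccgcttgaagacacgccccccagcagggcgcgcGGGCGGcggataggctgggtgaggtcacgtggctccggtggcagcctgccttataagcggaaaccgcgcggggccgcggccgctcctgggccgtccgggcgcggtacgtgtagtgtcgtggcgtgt
RefSeq windows were held for 5 of the 8 genes, the 3 printed and those of Lss and Cyp51. The sterol regulatory element letters were found in 1 of these 5, as TCACCCCAC from position -137 to -129 of Hmgcs1, against 1.05% of the 32851 windows of the same length (346 windows). CCAAT was found in 5 of 5 against 33.8% of all windows, and GGGCGG in 5 of 5 against 32.7%. These are matches of letters in a window and not measured binding. Only the letters given were searched, so a window without a match could still hold a site with other letters.

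Markers of the labelled stages and of other cell types were checked first. Il2ra, which encodes CD25, was at 0.339 to 1.85 CPM (counts per 1000000 reads on genes) in the no Notch libraries, 20.6 to 27.6 CPM in DN1, 1133 to 1651 CPM in DN2a and 1757 to 2121 CPM in DN2b. Kit was at 23.0 to 115 CPM in no Notch, 346 to 438 CPM in DN1, 176 to 205 CPM in DN2a and 127 to 179 CPM in DN2b. Cd44 was at 356 to 566, 139 to 173, 45.1 to 52.5 and 11.1 to 13.1 CPM in the same order. Both genes were thus lower in DN2a than in DN1, although both stages were sorted as KIT++CD44+. The 7 T lineage genes examined summed to 1.36 to 4.15 CPM in the no Notch libraries, 379 to 480.3 CPM in DN1, 1297 to 1764 CPM in DN2a and 2251 to 3277 CPM in DN2b. The no Notch cultures held myeloid transcripts instead: the 8 macrophage markers summed to 1511 to 4914 CPM there and to 6.19 to 44.4 CPM in the DN libraries, with 3 of the 8, not the same 3 at each stage, at 0 in both libraries of a DN stage and C1qa at 0 in all 6, and the 8 neutrophil markers summed to 22036 to 61728 CPM in no Notch. Csf1r, the receptor that marks macrophages, was at 507 to 1203 CPM in no Notch, 21.8 and 25.9 CPM in DN1 and at most 0.144 CPM in DN2a and DN2b. In DN1 the neutrophil sum was 2971 CPM in replicate 1 and 85.5 CPM in replicate 2. The 7 mast cell and basophil markers summed to 38.6 to 175 CPM in no Notch, 8822 and 2296 CPM in replicates 1 and 2 of DN1, 428 to 574 CPM in DN2a and 255 to 475 CPM in DN2b. Mcpt1 (7467 and 1879 CPM) and Cpa3 (1175 and 361 CPM) made up most of the sum in DN1, and Cpa3 most of it in DN2a and DN2b, whereas the members went both ways: over no Notch, DN1 had 3 called higher and 2 lower, DN2a had 2 called higher and 4 lower, and DN2b had 1 called higher and 5 lower. Each difference from no Notch given below therefore moved together with a change in cell composition, whose part in it was not tested, and in bulk RNA fewer cells of a type and less RNA per cell cannot be told apart. Reads on genes ranged from 12354635 to 35367925 per library, so that 3 reads, the detection floor, were worth 0.0848 to 0.243 CPM, far under every value of the 8 genes.

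Most of the 8 sterol genes were called higher than no Notch in DN2a and in DN2b, whereas Fdps and Insig1 were called at no stage. Of the 8 genes, 5 were called higher in DN2a and 6 in DN2b, 2 were called higher in DN1, and none was called lower at any stage (edgeR quasi-likelihood test, adjusted p under 0.05 over 12221 genes). Of all genes tested, 45.5% were called in either direction in DN2a, 42.5% in DN2b and 31.4% in DN1, and 21.2%, 19.9% and 14.3% were called higher. The 5 in DN2a became 3 without either DN2a library, the 6 in DN2b became 3 without DN2b replicate 2, and the 2 in DN1 became 0 without DN1 replicate 2. The median log2FC of the 8 genes over no Notch was 0.62 in DN1, 0.96 in DN2a and 1.22 in DN2b, beside -0.05 for all genes in both DN2a and DN2b and 0.01 in DN1. Their summed level was 385, 918, 806 and 722 CPM in IgG D1, D2, R1 and R2, 1145 and 1062 CPM in replicates 1 and 2 of DN1, 1648 and 1858 CPM in DN2a, and 1637 and 2205 CPM in DN2b. In this sum of plain CPM every DN library lay above every no Notch library, and every DN2a and DN2b library above both DN1 libraries. After TMM scaling, which the test uses to set libraries on a common scale, IgG D2 (1069.7 CPM) lay above both DN1 libraries (961 and 979 CPM), and the DN2a and DN2b libraries stayed above every other. Gene by gene, the libraries did not overlap for 5 of 8 genes in DN1, 6 in DN2a and 6 in DN2b, each with the DN stage higher, beside 31.3%, 31.7% and 29.7% of all genes in that direction. The 3 comparisons share the same no Notch libraries.

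**Figure D1:**
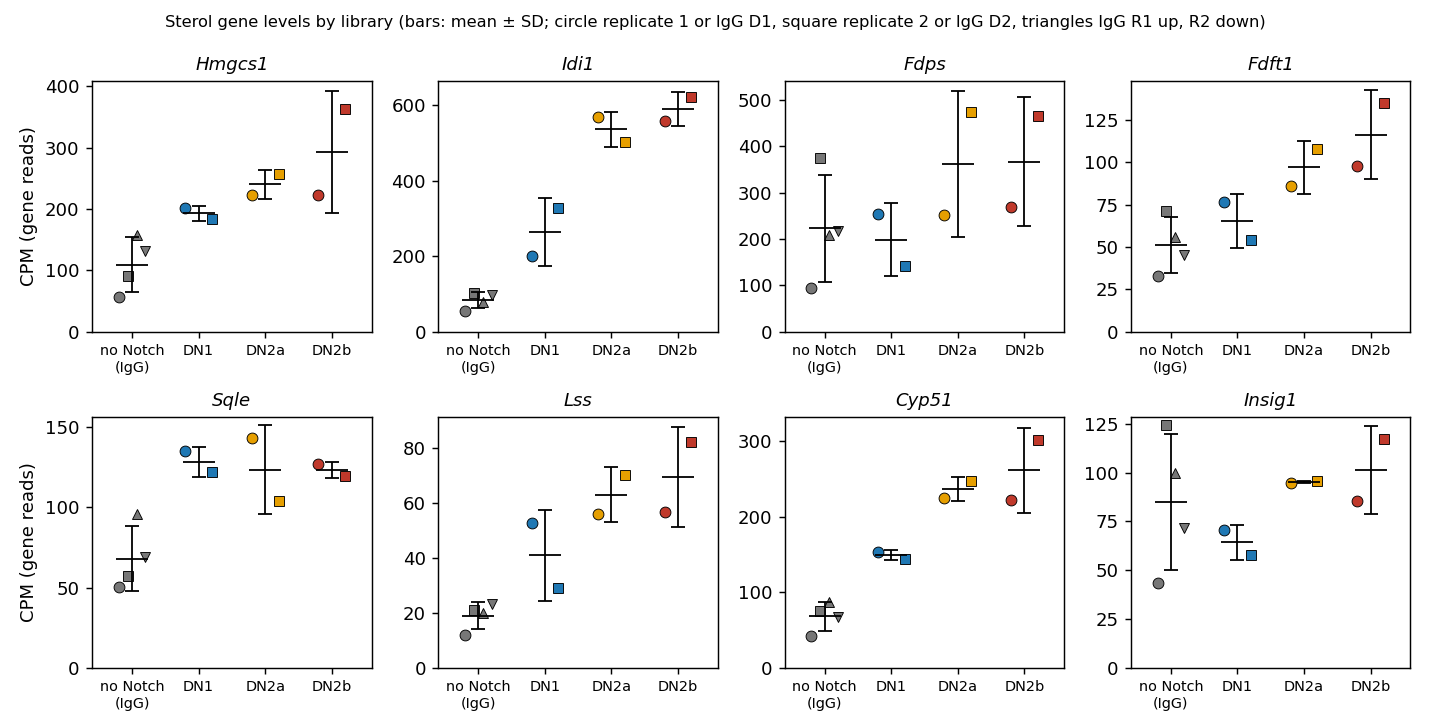
Levels of the 8 sterol genes in CPM over gene reads, 1 panel per gene with its own axis from 0 and 1 point per library; bars give mean ± SD (n = 4 for no Notch, n = 2 for each DN stage). Idi1 climbs from 54.1 to 103 CPM in no Notch to 502 to 622 CPM in DN2a and DN2b, whereas for Insig1 the no Notch range covers all 6 DN libraries.

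The first member of the chain, Hmgcs1, encodes the cytosolic HMG-CoA synthase, an early step of the mevalonate pathway (chr13:119690379-119708260, plus strand, mm10). It was at 56.2, 91.2, 158 and 131 CPM in IgG D1, D2, R1 and R2, at 202 and 184 CPM in DN1, at 224 and 257 CPM in DN2a, and at 223 and 363 CPM in DN2b, with replicate 1 given before replicate 2 here and below. All 6 DN libraries lay above all 4 no Notch libraries, and the highest value was that of DN2b replicate 2. Hmgcs1 was 2.14-fold higher in DN2a than in no Notch (log2FC 1.10, SE 0.33, adjusted p = 0.0238, edgeR) and 2.58-fold higher in DN2b (log2FC 1.37, SE 0.33, adjusted p = 0.0100, edgeR). In DN1 the log2FC was 0.58 (SE 0.34, adjusted p = 0.216, edgeR). The DN2a call was lost without either DN2a library (adjusted p = 0.0754 without replicate 1 and 0.138 without replicate 2) and against IgG R1 and R2 only (adjusted p = 0.0648), and the DN2b call without DN2b replicate 2 (adjusted p = 0.0901).

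Idi1 encodes isopentenyl-diphosphate isomerase, which interconverts the pair of isoprenoid building blocks (chr13:8885501-8892451, plus strand). It differed most of the 8 genes at every stage: 54.1, 103, 80.0 and 97.7 CPM in IgG D1, D2, R1 and R2, 200.2 and 329 CPM in DN1, 569 and 502 CPM in DN2a, and 558 and 622 CPM in DN2b. The lowest DN1 library was above the highest no Notch library, and the lowest DN2 library above the highest DN1 library. The fold over no Notch was 2.65 in DN1 (log2FC 1.41, SE 0.30, adjusted p = 0.00815), 6.08 in DN2a (log2FC 2.60, SE 0.30, adjusted p = 3.46e-04) and 6.67 in DN2b (log2FC 2.74, SE 0.30, adjusted p = 2.66e-04). The DN2a and DN2b calls held in 17 of 17 alternative fits, with another tool, scaling, filter or set of controls or with 1 library left out, and the DN1 call in 15 of 17, being lost without DN1 replicate 2 (log2FC 0.93, adjusted p = 0.0903) and against IgG D1 and D2 only (log2FC 1.33, adjusted p = 0.0569). Per kilobase of transcript, Idi1 had rank 4 of the 8 genes in no Notch, at 27.7 CPM per kb, and rank 2 in DN1, DN2a and DN2b, at 87.3, 177 and 195 CPM per kb. Fdps was the highest and Lss the lowest per kilobase in all 4 groups.

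Fdps and Fdft1 follow, the farnesyl diphosphate synthase and the squalene synthase that commits farnesyl diphosphate to sterols. Fdps (chr3:89093588-89101959, minus strand) was at 94.1, 374, 209 and 216 CPM in IgG D1, D2, R1 and R2, 255 and 143 CPM in DN1, 251 and 474 CPM in DN2a, and 268 and 465 CPM in DN2b. The no Notch range overlapped that of each DN stage, with IgG D2 above both DN1 libraries, and at no stage did it pass the test: the log2FC over no Notch was -0.47 in DN1, 0.62 in DN2a and 0.62 in DN2b (SE 0.51 to 0.53, adjusted p = 0.342 to 0.527, edgeR). Fdft1 (chr14:63145150-63179578, minus strand) was at 32.9, 71.6, 55.9 and 45.2 CPM in IgG D1, D2, R1 and R2, 76.8 and 54.1 CPM in DN1, 86.1 and 108 CPM in DN2a, and 97.8 and 135 CPM in DN2b. No DN2 library overlapped the no Notch range, whereas DN1 replicate 2 lay within it. Fdft1 was called higher in DN2b only (2.11-fold, log2FC 1.08, SE 0.32, adjusted p = 0.0244), beside 0.83 in DN2a (SE 0.32, adjusted p = 0.0611) and 0.05 in DN1 (adjusted p = 0.920), and the DN2b call was lost without either DN2b library, IgG R1 or IgG R2 and against IgG D1 and D2 only (adjusted p = 0.0502 to 0.147).

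Sqle encodes squalene epoxidase, a rate-limiting oxygen-dependent step (chr15:59315077-59331192, plus strand). It was at 50.3, 56.9, 96.0 and 69.1 CPM in IgG D1, D2, R1 and R2, 135 and 122 CPM in DN1, 143 and 104 CPM in DN2a, and 127 and 119.6 CPM in DN2b. The 6 DN libraries were all above no Notch, and the 3 DN stages overlapped one another. The log2FC over no Notch was 0.65 in DN1 (SE 0.25, adjusted p = 0.0703), 0.79 in DN2a (SE 0.25, adjusted p = 0.0267) and 0.79 in DN2b (SE 0.25, adjusted p = 0.0286). The DN2 calls were near the threshold and were lost without IgG D1, without IgG R2 or without either library of the stage and against IgG R1 and R2 only (adjusted p = 0.0534 to 0.209), and that of DN2b also in a fit of the 2 groups alone (adjusted p = 0.0550).

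Lss and Cyp51 encode the enzymes that close squalene epoxide into lanosterol and then remove a methyl group from it. Lss (chr10:76531588-76557138, plus strand) was at 11.8, 21.1, 20.0 and 23.1 CPM in IgG D1, D2, R1 and R2, 52.5 and 29.2 CPM in DN1, 55.8 and 70.1 CPM in DN2a, and 56.6 and 82.1 CPM in DN2b. Cyp51 (chr5:4081145-4104746, minus strand) was at 42.0, 75.0, 87.1 and 67.6 CPM in IgG D1, D2, R1 and R2, 154 and 144 CPM in DN1, 225 and 247 CPM in DN2a, and 221 and 301 CPM in DN2b. For both genes no Notch, DN1 and the DN2 stages did not overlap, and DN2a overlapped DN2b. Lss was 3.18-fold higher in DN2a than in no Notch (log2FC 1.67, SE 0.29, adjusted p = 0.00220) and 3.47-fold higher in DN2b (log2FC 1.80, SE 0.29, adjusted p = 0.00167). Cyp51 was 3.31-fold higher in DN2a (log2FC 1.73, SE 0.27, adjusted p = 0.00125) and 3.64-fold higher in DN2b (log2FC 1.86, SE 0.27, adjusted p = 9.14e-04). These 4 calls held in 17 of 17 alternative fits. In DN1 Cyp51 was called (log2FC 0.86, SE 0.27, adjusted p = 0.0380) and Lss was not (log2FC 0.83, SE 0.30, adjusted p = 0.0608), and the DN1 call of Cyp51 held in 7 of 17 fits. With 1 library left out it held in 4 of 10 fits, being lost without either DN1 library, either DN2a library, IgG D1 or IgG R2 (log2FC 0.71 to 0.99 over the 10). The other losses were among the fits with another tool, scaling, filter or set of controls or of the 2 groups alone.

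Insig1 encodes the sterol-sensing anchor of SCAP and is itself an SREBP target (chr5:28071363-28078662, plus strand). It was at 43.7, 124, 99.8 and 71.8 CPM in IgG D1, D2, R1 and R2, 70.6 and 57.9 CPM in DN1, 94.9 and 95.5 CPM in DN2a, and 85.3 and 117 CPM in DN2b. The no Notch range covered all 6 DN libraries. The log2FC over no Notch was -0.69 in DN1 (SE 0.39, adjusted p = 0.203), 0.07 in DN2a (SE 0.38, adjusted p = 0.884) and 0.16 in DN2b (SE 0.38, adjusted p = 0.754), so Insig1 passed the test at no stage.

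Between DN stages the 8 genes had higher fitted values in DN2a and DN2b than in DN1, and none passed the edgeR test. In DN2a over DN1, 8 of 8 fitted values were positive, from 0.14 (Sqle) to 1.20 (Idi1), with a median of 0.81, and in DN2b over DN1, 8 of 8 were positive, from 0.14 to 1.33, with a median of 0.98. Positive values made up 47.2% and 47.8% of all genes in these comparisons. The edgeR test called 0 of 8 in each, where 0.401% and 1.91% of all genes were called. At an unadjusted p under 0.05 there were 3 and 4 genes, and DESeq2 called 0 in DN2a over DN1 and 1, Idi1, in DN2b over DN1 (adjusted p = 0.0110). Idi1 had a log2FC of 1.20 in DN2a over DN1 (SE 0.36, adjusted p = 0.263, edgeR) and of 1.33 in DN2b over DN1 (SE 0.36, adjusted p = 0.122, edgeR). Libraries of DN2a and DN1 did not overlap for 6 of 8 genes, and those of DN2b and DN1 for 7 of 8, all with DN2 higher, whereas 12.1% and 13.2% of all genes had their libraries apart in that direction. The scaling of libraries moved these values: without TMM the median of all genes shifted by -0.20 in DN2a over DN1 and by -0.19 in DN2b over DN1, and Sqle then turned to -0.057 and -0.060.

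The size of the step from DN1 differed between years. On TMM-scaled CPM, the log2 ratio of DN2a to DN1 for Idi1 was 1.73 in replicate 1 (the earlier year) and 0.78 in replicate 2 (the later year), whereas that for Fdps was 0.21 and 1.90. Lss went the way of Fdps, at 0.32 and 1.43, and Sqle was at 0.31 and -0.06. So on this scale 8 of 8 genes had a positive ratio in the earlier year and 7 of 8 in the later, with Idi1 the largest in the earlier year and Fdps in the later. In plain CPM Fdps of the earlier year was lower in DN2a (251 CPM) than in DN1 (255 CPM). The DN1 libraries also differed in markers of other cells: the 7 mast cell and basophil markers summed to 8822 CPM in replicate 1 and 2296 CPM in replicate 2, and the part of this in the ratios was not tested.

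DN2b and DN2a were close. The 8 fitted log2FC values of DN2b over DN2a ran from -0.01 (Fdps) to 0.27 (Hmgcs1), with 0 of 8 called by edgeR, 0 at an unadjusted p under 0.05 and 0 by DESeq2. The share of all genes called by edgeR was 0%, with 335 of all genes at an unadjusted p under 0.05 and 29 called by DESeq2. The standard errors were 0.29 to 0.60 on the log2 scale, and over the alternative fits the values ran from -0.42 to 0.57, so small differences were not detectable with 2 libraries a stage.

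**Figure D2:**
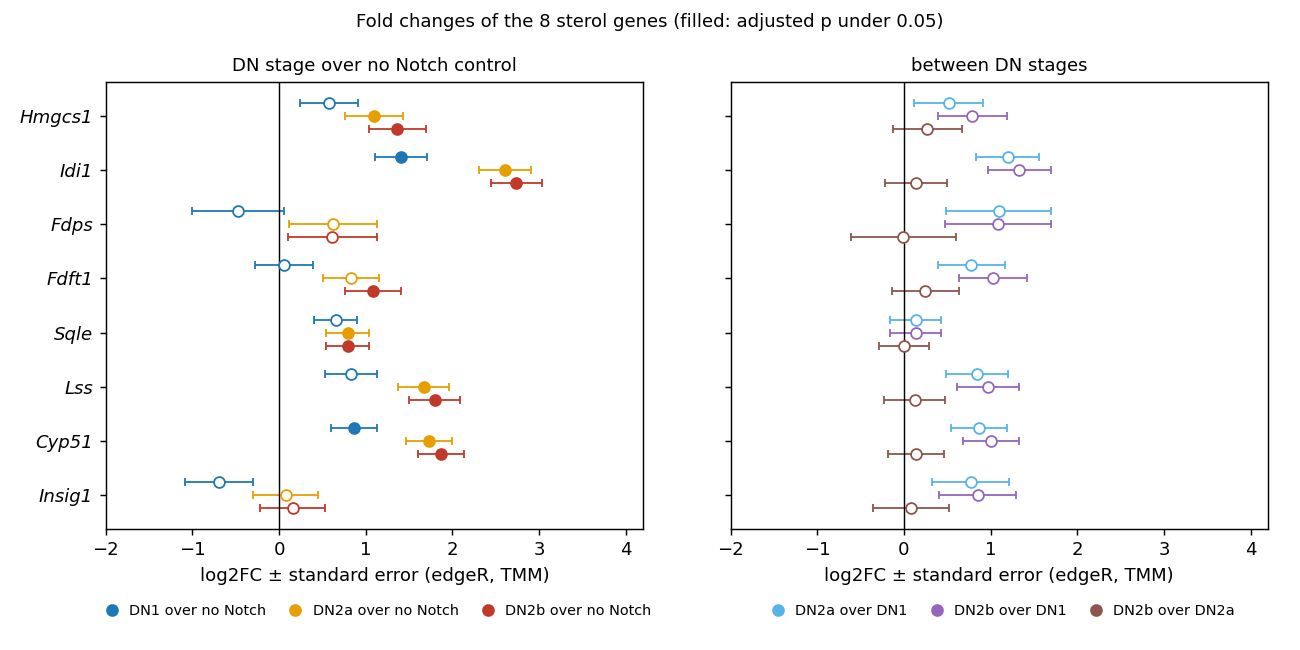
Fitted log2FC ± standard error of the 8 sterol genes (edgeR, TMM), over no Notch at left and between DN stages at right; filled points have an adjusted p under 0.05. Filled points lie at left only, all above 0, and reach 2.74 for Idi1 in DN2b.

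Of the other 13 synthesis enzymes examined a minority was called. In DN2a 3 of 13 were called higher, in DN2b 4 and in DN1 1, with 0 called lower, beside 21.2%, 19.9% and 14.3% of all genes called higher, and their median log2FC was 0.30, 0.29 and -0.23. With 1 library left out these counts ran from 1 to 6 in DN2a, from 1 to 6 in DN2b and from 0 to 2 in DN1. Acat2, the cytosolic acetoacetyl-CoA thiolase at the head of the chain, was called at each stage, with 8.53 to 20.7 CPM in no Notch, 30.9 to 57.5 CPM in DN1, 48.2 to 58.5 CPM in DN2a and 57.6 to 61.5 CPM in DN2b (log2FC 1.33, 1.81 and 1.97). Dhcr7, which reduces the final precursor to cholesterol, was higher in DN2a (log2FC 0.97, SE 0.31, adjusted p = 0.0283) and DN2b (log2FC 1.33, SE 0.30, adjusted p = 0.00782), and Msmo1, a methylsterol oxidase, was higher in both (log2FC 1.09 and 1.17). The DN2a and DN2b calls held in 11 and 15 of 17 alternative fits for Dhcr7 and in 11 and 11 for Msmo1. Lbr, a sterol reductase of the nuclear envelope, was called in DN2b only (log2FC 0.76, SE 0.26, adjusted p = 0.0383), a call that held in 7 of 17 alternative fits. In DN2b over DN1 0 of 13 passed the edgeR test, with 3 at an unadjusted p under 0.05 and 1 by DESeq2, beside 1694 and 822 of all 12221 genes. There 13 of 13 values were positive (median 0.64), beside 47.8% of all genes.

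Of 6 genes that control SREBP (Srebf1, Srebf2, Scap, Insig2, Mbtps1 and Mbtps2), 1, Scap, was called higher in DN2a and in DN2b (log2FC 0.74 and 0.72), which held in 12 and 8 of 17 alternative fits, beside 21.2% and 19.9% of all genes called higher. None was called in DN1, where 1 had an unadjusted p under 0.05, DESeq2 called 0, and 1 was called under library size scaling and without DN1 replicate 1. Srebf2, which encodes the SREBP most tied to sterol synthesis, was at 116 to 225 CPM in no Notch, 197 and 272 CPM in DN1, 169 and 174 CPM in DN2a and 156 and 170.5 CPM in DN2b, with the DN2 libraries inside the no Notch range.

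Uptake and intracellular transport genes were mostly called lower. Of 7 tested, 4 were called lower in DN1 and 4 in DN2a, and in DN2b 4 were called lower and 1 higher, beside 17.0%, 24.3% and 22.5% of all genes called lower. The calls fell to 1 without DN1 replicate 2 in DN1, without DN2a replicate 1 in DN2a and without either DN2b library in DN2b. Scarb1, which encodes the HDL receptor, was lower at each stage (log2FC -1.66, -2.06 and -2.18), as was Lipa, the lysosomal acid lipase, with 153 to 1348 CPM in no Notch and 33.6 to 65.3 CPM in the DN libraries. Stard4, a cytosolic sterol carrier, was the gene called higher in DN2b (log2FC 0.99, SE 0.32, adjusted p = 0.0322), a call that held in 10 of 17 alternative fits.

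Of 8 efflux, esterification and LXR genes tested, 6 were called lower in DN1, 6 in DN2a and 4 in DN2b, with none higher and medians of -2.57, -2.49 and -1.91, beside 17.0%, 24.3% and 22.5% of all genes called lower. The calls fell to 2 without DN1 replicate 2 in DN1, without DN2a replicate 1 in DN2a and without DN2b replicate 1 in DN2b. Abca1, the cholesterol exporter, was at 38.7 to 285 CPM in no Notch and 0.260 to 5.26 CPM in the DN libraries. Apoe, a lipoprotein component that macrophages secrete, was at 192 to 898 CPM in no Notch and 0.546 to 11.3 CPM in the DN libraries, and Soat1, the enzyme that esterifies cholesterol for storage, was at 141 to 602 CPM and 26.5 to 74.7 CPM. Abcg1 was called lower in DN1 only (log2FC -1.72, beside -0.39 in DN2a and -0.17 in DN2b). Its DN2a (44.8 and 82.0 CPM) and DN2b (53.1 and 96.3 CPM) libraries lay inside the no Notch range of 44.3 to 122 CPM. Lpcat3 was called at no stage. The macrophage marker sum given above was at least 1511 CPM in each no Notch library and at most 44.4 CPM in each DN library. It moved with Abca1, Apoe and Soat1, and its part was not tested.

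Of 10 SREBP targets of fatty acid synthesis, 1 was called at each stage, Fads2, a fatty acid desaturase, with 13.8 to 54.4 CPM in no Notch and 118 to 173 CPM in the DN libraries (log2FC 1.94, 2.35 and 2.25), beside 14.3%, 21.2% and 19.9% of all genes called higher in DN1, DN2a and DN2b. With 1 library left out the count ran from 0 to 2 in DN1, 1 to 3 in DN2a and 1 to 4 in DN2b. In the branches that use isoprenoids for other ends, Fntb, a subunit of farnesyltransferase, was called higher at each stage (log2FC 0.92, 1.11 and 1.09), a call that held in 6, 14 and 15 of 17 alternative fits. Ggps1, the geranylgeranyl diphosphate synthase, was higher in DN2a and DN2b (log2FC 0.83 and 1.10), which held in 11 and 14 of 17. In all, 2 of 7 such genes were called in DN1 (1 higher and 1 lower), 5 in DN2a (4 and 1) and 2 in DN2b (2 and 0), beside 31.4%, 45.5% and 42.5% of all genes called in either direction. Over the alternative fits these counts ran from 0 to 4 in DN1, 1 to 5 in DN2a and 0 to 3 in DN2b.

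**Figure D3:**
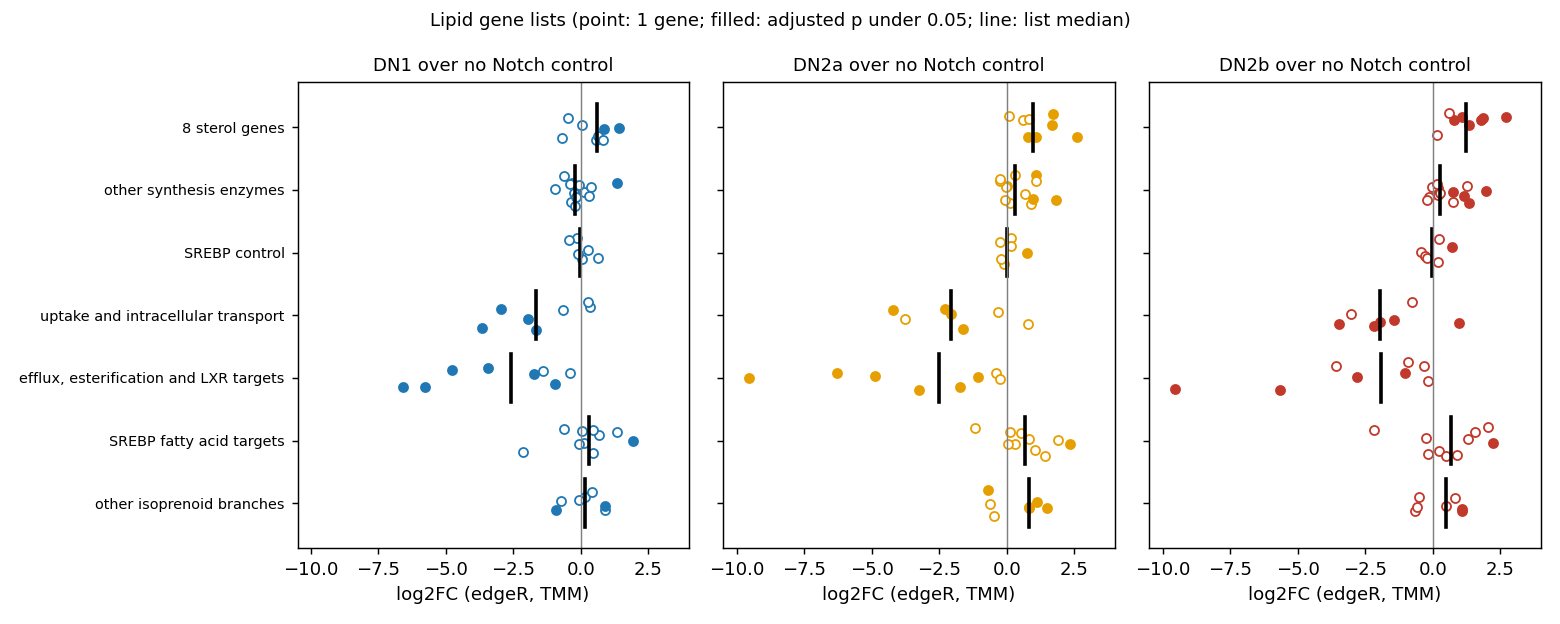
Fitted log2FC over no Notch of the 8 sterol genes and 6 other lipid gene lists, 1 panel per DN stage and 1 point per gene tested; filled points have an adjusted p under 0.05 and the black line is the list median. The 8 sterol genes have medians of 0.62, 0.96 and 1.22, and the efflux list has medians of -2.57, -2.49 and -1.91.

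The no Notch libraries differed among themselves in sterol genes. IgG D1 was the lowest of the 4 for 8 of 8 genes and for 9 of the 13 other enzymes examined, while it was the lowest for 33.2% of all genes tested. IgG D1 also had the highest macrophage sum (4914 CPM, against 1511 to 3609 CPM in the others). It was the highest of the 4 for 5 and the lowest for 3 of 9 efflux, esterification and LXR genes measured, and the highest for 3 and the lowest for 3 of 8 uptake and transport genes measured. Without IgG D1, 1 of the 8 genes was called in DN1, 4 in DN2a and 5 in DN2b. Summed over 8 proliferation genes, IgG D1, D2 and R1 (1354, 1184 and 1685 CPM) lay below every DN library (1766 to 3789 CPM), and IgG R2 (2588 CPM) lay within the DN range. Among DN libraries, DN2b replicate 2 had the highest sterol sum, at 2205 CPM, with the lowest proliferation sum, 1766 CPM, whereas DN2a replicate 1 had 1648 CPM beside 3789 CPM. DN2b replicate 2 also had the fewest reads on genes of the 10 libraries (12354635) and the largest share of reads aligned to more than 1 place (30.1%). The proliferation genes did not all go one way: over no Notch, 7 of 8 fitted values were positive in DN1, 7 in DN2a and 6 in DN2b. Mki67 was negative at each stage (log2FC -0.37, -1.58 and -3.05) and Top2a in DN2b (log2FC -0.55), none of them called. Of the 8 proliferation genes 2 were called higher than no Notch in DN1, 6 in DN2a and 2 in DN2b, beside 14.3%, 21.2% and 19.9% of all genes. The 6 in DN2a became 0 without DN2a replicate 1, and over the alternative fits the count ran from 0 to 5 in DN1 and from 0 to 4 in DN2b.

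**Figure D4:**
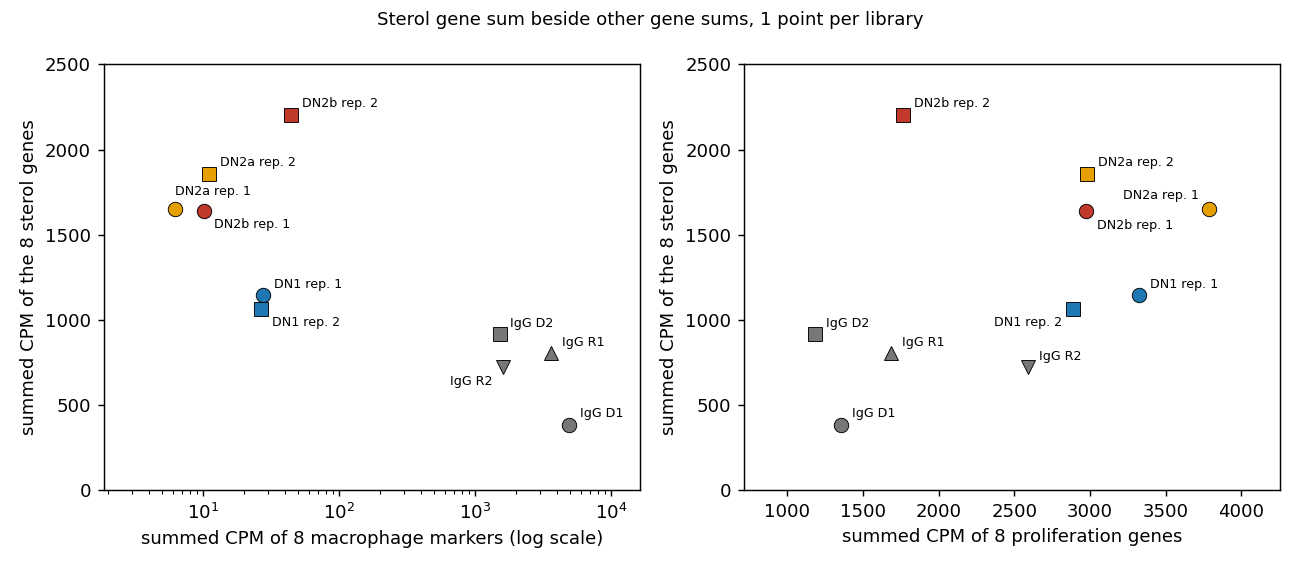
Summed CPM of the 8 sterol genes against summed CPM of 8 macrophage markers (left, log scale) and of 8 proliferation genes (right), 1 point per library. The 4 no Notch libraries lie at 385 to 918 CPM of sterol genes and at 1511 CPM or more of macrophage markers, and DN2b replicate 2 combines 2205 CPM with 1766 CPM of proliferation genes.

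Across the 10 libraries the 8 genes were not equally alike. Pearson's r with their mean standardised profile was 0.967 for Cyp51, 0.960 for Fdft1, 0.954 for Lss, 0.932 for Hmgcs1, 0.900 for Idi1, 0.795 for Fdps, 0.781 for Sqle and 0.627 for Insig1. Each of the 8 genes is part of that mean, which raises its r, so these values and those of other genes are not on equal terms. Over the 28 pairs r ran from 0.17 (Insig1 with Sqle) to 0.97, with a median of 0.81, and after each group's mean was removed from -0.02 to 0.94, with a median of 0.57. The libraries share their groups, so these values are descriptions. Among 12213 other genes, the 5 with the highest r were Gpr55 (0.965), P4htm (0.959), Rasgrp1 (0.956), Dhcr7 (0.955) and Fam83d (0.953). Gpr55 was at 1.30 CPM or less in each library, near the level where few reads set the value, whereas Dhcr7 was the nearest gene of the enzyme list. Stard4 stood at rank 51 of these genes.

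Overlapping or related genes could affect some counts of the 8 genes. In the annotation, exons of Hmgcs1 and Lss overlap antisense transcripts and those of Idi1 overlap Gm48574, an entry of unsettled type, on the opposite strand, those of Fdft1 and Cyp51 overlap Ctsb and Akap9 on the opposite strand, and the strand setting used in counting is not given in the sources used here. Fdps overlaps Gm43738 on its own strand. Idi1 and Insig1 have the related genes Idi2 and Insig2.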

How the data were processed

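The authors filtered reads on the Illumina quality threshold, mapped 36 bases of read 1 to mm10 by TopHat and obtained gene counts by htseq-count (intersection-strict). The submitters' processing notes name TopHat2 2.12, HTSeq 0.6.1p1 and Cufflinks 2.2.1. The gene annotation and strand setting are not given in the sources used here. The deposited values are whole-number counts per gene, 1 library per table, from a stranded total RNA kit. Replicates of a stage came from independent LSK isolates, per the study's methods. Reads that aligned to more than 1 place, 16.4% to 30.1% of the total of each table with its summary lines, were not counted in genes, which lowers genes with near-identical copies. The 5 summary lines were dropped, and CPM was computed over gene rows.

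Tests used edgeR 4.0.16 in R 4.3.3: TMM scaling (factors 0.858 to 1.19), a filter of 1 CPM or more in 2 libraries or more (12221 genes kept of 24062), the quasi-likelihood test over all 10 libraries in 4 groups, and Benjamini-Hochberg adjustment over all genes tested at 0.05. DESeq2 1.42.0, library size scaling, other filters, fits of 2 groups, subsets of the controls and each library left out were alternatives. Log2FC is the log2 fold change. Libraries of 1 year were checked for pairing: their deviations from the group means had r of 0.0842 (DN1 with DN2a), 0.287 (DN1 with DN2b) and 0.270 (DN2a with DN2b), and with 2 libraries per stage they were not treated as pairs. Named genes are the 8 members, the lists of pathway genes, of which some members are not reported here and were left out of the counts, and the 5 genes most alike in profile. The members and lists were chosen with earlier results of these data known. Gene positions are from GENCODE vM21.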

Additional observations from a re-analysis of the deposited data

Results flagged for a closer look

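Of the genes in the lipid and proliferation lists, 6 of 67 had 1 no Notch library far from the other 3 by Dixon's test at 95%, which chance does for about 1 group in 20, and none of the 8 sterol genes did. IgG D2 stood high for Nsdhl, a sterol dehydrogenase (64.4 CPM against 22.6 to 26.1 CPM), for the sterol reductase Tm7sf2 (33.6 CPM against at most 9.53 CPM), for Acss2, the acetyl-CoA synthetase (32.6 CPM against 4.46 to 7.85 CPM), and for the desaturase Scd1 (19.6 CPM against 0.226 to 1.72 CPM). IgG D2 was low for Nus1 (77.0 CPM against 143 to 154 CPM), and IgG R1 for Ggps1 (12.9 CPM against 16.6 to 17.2 CPM).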

How the results depend on the processing

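The counts of sterol genes called over no Notch moved by more than 1.5 times in DN1, from 2 to 4 under library size scaling and to 1 with no filter, in a fit of the 2 groups alone, against IgG D1 and D2 only and against IgG R1 and R2 only. Leaving out 1 library gave 0 to 3 in DN1, with 0 without DN1 replicate 2, 3 to 6 in DN2a, with 3 without either DN2a library, and 3 to 6 in DN2b, with 3 without DN2b replicate 2. A stage left with 1 library was assumed to vary like the other groups. In DN2b over DN1, DESeq2 moved the count from 0 to 1. Among fold changes of the 8 genes outside DN2b over DN2a, 627 values under alternatives kept direction and call, 32 lost a call, 9 gained one and 12 changed sign. Under library size scaling Sqle was -0.057 relative to DN1 in DN2a and -0.060 in DN2b. Against IgG D1 and D2 only, Fdft1 was -0.11 in DN1 over no Notch and Insig1 -0.080 in DN2a over no Notch. With 1 library left out, Fdft1 ranged from -0.14 to 0.32 in DN1 over no Notch, Insig1 from -0.13 to 0.39 in DN2a and from -0.052 to 0.48 in DN2b over no Notch, and Sqle from -0.060 to 0.32 in DN2a over DN1. The cause was not tested.

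Over all genes, DN2a over DN1 gave 49 calls, against 474 by DESeq2, 101 with no filter, 25 from 2 groups, 32 from the 6 DN libraries and 0 to 229 with 1 library left out. DN2b over DN1 gave 233, against 822, 80 from 2 groups and 51 to 383. DN2b over DN2a gave 0, with 335 at an unadjusted p under 0.05, 29 by DESeq2 and 1 with no filter. Over no Notch, 3834, 5559 and 5190 calls in DN1, DN2a and DN2b became 1867 to 4163, 2686 to 6016 and 2683 to 5674 with 1 library left out, and 2329 in DN1 and 3264 in DN2b against IgG D1 and D2 only. With the label year as replicate block, the 6 DN libraries gave 58 calls for DN2a over DN1, 233 for DN2b over DN1 and 0 between DN2b and DN2a, against 32, 187 and 0 without the block, and 0 of the 8 sterol genes in each.

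Each sterol gene lay far over the level of 3 reads in every library, and there were 2 libraries per DN stage.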
